A study of Pinus elliottii with 16 samples.

Results

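In the vascular cambium of slash pine (Pinus elliottii) tapped for resin, 45 of 8949 annotated features were higher with stimulant paste than with wounding alone at day 5 and differed little between the treatments at day 15. From day 5 to day 15 the wounded controls had come up towards the paste level, by a median of 0.77 on the log2 scale. The paste trees had come down by less, with a median change of -0.14 and a lower mean in 33 of 45. The limma fit across all features called no member and no feature between the days in either treatment (adjusted p below 0.05). In 38 of the 45 the larger part of the loss of the day 5 difference came from the controls. The choice of members favours both a control rise and a paste fall. Without 1 library, paste day 15 replicate 3, the median paste change was -0.31 and 31 of 45 had the larger part from the controls. Without that library and a nearly identical pair of paste libraries these were -0.47 and 28. In that setting limma called 5 members, all lower at day 15, and 1156 of 5856 features between the days in paste. In controls it called 0 members and 39 features. The features are called "day 5 only" for the difference between treatments, and that name does not describe their level in paste trees. At day 15 the paste mean was above the day 5 control mean in 44 of 45, a count that the choice of low day 5 controls favours. The day 15 control mean was also above it, in 42 of 45. The share of all features was not computed for the paste count.

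The trees were 16 years old, and all had been tapped regularly with conventional paste before the trial, controls included. Every tree was stripped of a strip of bark. Those of the paste groups were then treated with a paste of 3% 2-chloroethylphosphonic acid (Ethrel, which releases ethylene) and 20% sulfuric acid, and the control trees were left without it. Tissue came from slightly above the wound, with 4 libraries each of paste day 15, control day 15, paste day 5 and control day 5. Neither ingredient was applied by itself, and what each contributes cannot be told apart.

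The members were chosen by their measured values in all 16 libraries, on the scale L = log2(value + 1), where a value is the normalized fragment count. A member had a value of 10 or more in at least 4 libraries, all 4 paste libraries above all 4 controls at day 5, and a mean L higher by 1 or more with paste at day 5. Its mean L with paste minus control at day 15 was below 0.7. Of the 8949 features, 5856 passed the limit on low values, 192 of these met the day 5 limits, and 45 also met the day 15 limit. Since the rule used every library, the members' differences between treatments and between days are given below as a description. Counts of members past a p threshold in the fit across all features, and any p-value of a member, describe the choice in the same way and test nothing about it. In whole tissue, a lower share of a cell type and less RNA per cell cannot be told apart.

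Conifer resin is made and stored in resin ducts, whose lining cells arise from the cambium. Wounding and the gaseous hormone ethylene both induce resin defence in conifer stems, including the formation of new ducts, and ethylene releasers are used in tapping to raise and prolong resin flow. Acid in a tapping paste keeps the wound open. The deposited files pair no identifier with a gene name or description, so no role can be given to any member, and the tissue could not be checked against marker genes.

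The libraries held 3323971 to 5203943 estimated fragments. The first replicates of paste day 15 and paste day 5 were almost copies of each other, with a Pearson correlation of 0.986 across the 5856 features, where the next closest pair of libraries had 0.945. Paste day 15 replicate 3 had correlations of 0.824 to 0.943 with the paste day 5 libraries and of 0.727 to 0.828 with the others of its own group. The reasons were not tested, and results that rest on these libraries are given with and without them. The total of the normalized values also differed between libraries, at 5948021 in paste day 15 replicate 3 against 3562719 to 4139306 in the other 3 paste day 15 libraries, and at 5170874 in control day 15 replicate 1 against 3992405 to 4231804. At day 5 it was 5774072 and 5598649 in paste replicates 2 and 4, 3963219 and 3815399 in paste replicates 1 and 3, and 4205352 to 5228608 in controls.

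At day 5 the members were higher with paste by a median of 1.29 on the log2 scale, about 2.45-fold, with a range of 2.01-fold to 7.17-fold. The median over all 5856 features was -0.05. Most members changed modestly: 31 differed by less than 1.5 on the log2 scale, 8 by 1.5 to 2, and 6 by more than 2. The gap between the lowest paste library and the highest control was often narrow. It had a median of 0.19 on the log2 scale, was below 0.2 in 23 members and ranged from 0.0035 to 1.25. Among all features tested, 6.63% had every paste library above every control at day 5, and 3.28% met both day 5 limits. In the fit across all features (limma, adjusted p below 0.05), 1 of the 45 members was called higher with paste at day 5, where 0.188% of all features were. At an unadjusted p below 0.05, 39 members were higher, against 8.45% of all features. The rule used this contrast.

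**Figure D1:**
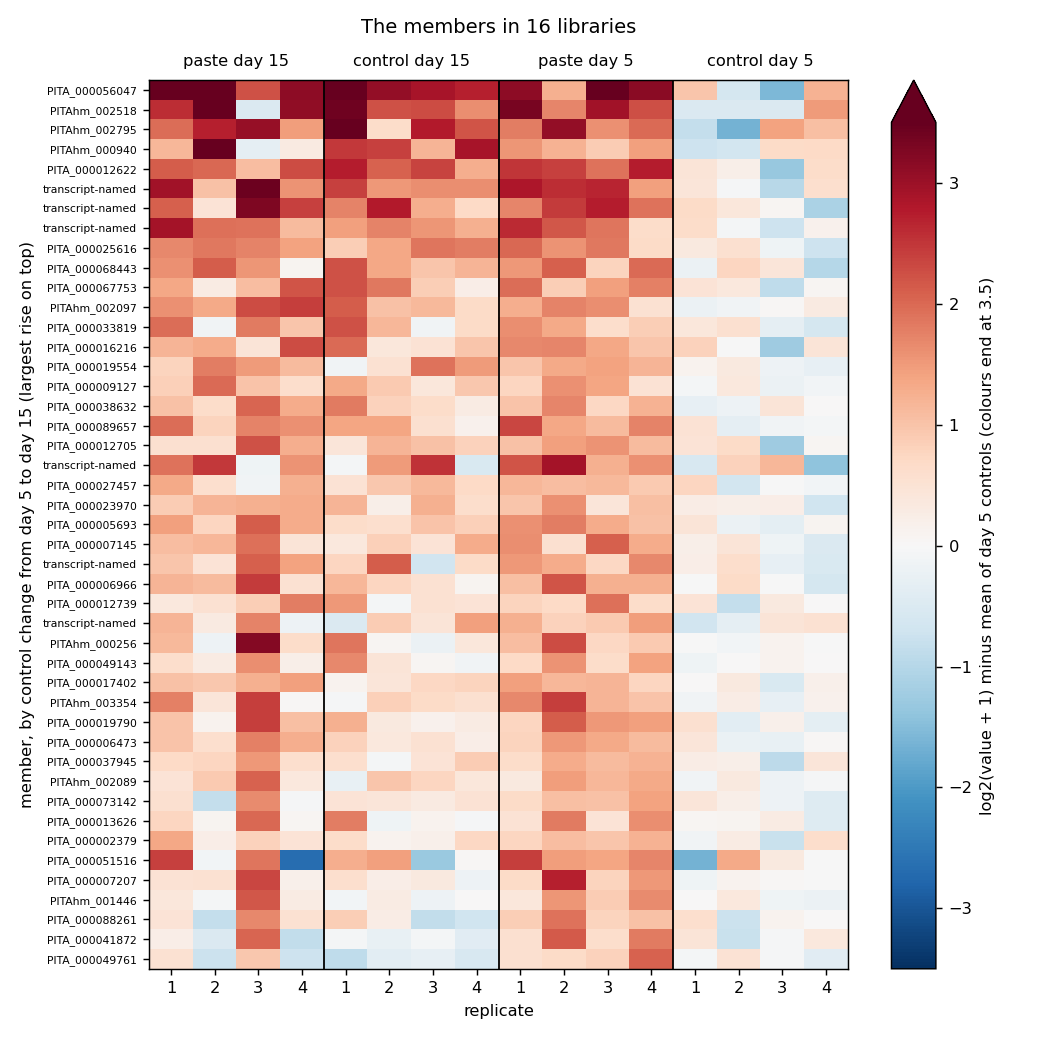
Each row is 1 of the 45 members and each column 1 library, ordered as paste day 15, control day 15, paste day 5 and control day 5. Colour gives log2(value + 1) minus the member's mean in the day 5 controls, with colours ending at 3.5, and rows are sorted by the change in controls with time. Every paste day 5 cell lies above the day 5 control mean, some only slightly and thus pale. Most control day 15 columns are red in the upper rows and pale in the lower rows.

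The members spanned a wide range of abundance. In day 5 controls 15 had a mean value below 10, 22 lay between 10 and 100, 5 between 100 and 1000, and 3 above 1000. The median level over all 16 libraries was 48.5, against 180 for all features tested. The 15 members below 10 rested on 3 to 36 estimated fragments over all 4 day 5 controls together, with a median of 15, so their differences carry a large counting error.

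PITA_000056047 had the largest day 5 difference. Its value was 25.1, 6.0, 40.9 and 25.6 in the paste day 5 libraries, against 4.85, 0.923, 0 and 5.83 in the day 5 controls. At day 15 it was 34.6, 50.9, 12.9 and 24.8 with paste, against 56.0, 24.2, 21.1 and 18.5 in controls. The day 5 controls stood below the other 12 libraries, and at day 15 the treatments overlapped. Its log2 difference, paste minus control, was 0.02 at day 15 and 2.84 at day 5 (SE 0.70 each), and its controls were 3.24 higher at day 15 than at day 5.

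PITAhm_002518 had the second largest day 5 difference and was the least abundant member. It was at 13, 3.60, 9.85 and 5.69 in the paste day 5 libraries, and listed at 0 in 3 of the day 5 controls and at 2.92 in replicate 4. At day 15 it was at 7.42, 18, 0 and 11 with paste, against 14, 5.58, 5.90 and 3.36 in controls. The day 5 controls rested on 3 estimated fragments in all, and the day 15 values overlapped between the treatments.

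PITAhm_000940 and PITA_000012622 had the lowest day 15 differences. PITAhm_000940 was at 5.77, 71.8, 1.43 and 2.75 in the paste day 15 libraries, against 15.6, 14.9, 5.90 and 21.0 in the controls, a log2 difference of -0.79 (SE 0.86) with 1 paste library far above and the other 3 below all controls. Its day 5 values were 7.78, 6.0, 4.54 and 7.11 with paste, against 0.808, 0.923, 3.78 and 3.89 in controls. PITA_000012622 was at 9.90, 8.98, 4.29 and 11 with paste, against 15.6, 9.30, 11.8 and 5.04 in controls at day 15, a log2 difference of -0.23 (SE 0.52). At day 5 it was at 13, 12, 8.33 and 15.7 with paste, against 2.42, 1.85, 0 and 2.92 in controls. That gap of 1.25 on the log2 scale between the day 5 groups was the widest of the 45.

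The most abundant members had far smaller counting error, and they were singled out after their values were seen. PITA_000049143 was at 4029, 7385, 3888 and 6624 in the paste day 5 libraries, against 2224, 2523, 2694 and 2487 in the day 5 controls, a log2 difference of 1.09 (SE 0.38). At day 15 it was at 3794, 3030, 7671 and 2849 with paste, against 7910, 3362, 2617 and 2284 in controls. In each day 15 group 1 library stood near the highest day 5 paste values, and the other 3 overlapped between the treatments.

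PITA_000023970 was at 3972, 6111, 2689 and 4146 with paste at day 5, against 2432, 2323, 2361 and 1237 in controls, a log2 difference of 1.01 (SE 0.29). At day 15 all 4 paste libraries lay between 3741 and 5002, as high as at day 5, and the controls were at 4564, 2337, 4760 and 3068. In this member 2 of the 4 controls had reached the paste level and 2 had not.

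PITAhm_003354 was at 4627, 7751, 3261 and 2870 with paste at day 5, against 1308, 1716, 1182 and 1595 in controls, a log2 difference of 1.58 (SE 0.45). At day 15 it was at 4868, 1921, 7721 and 1462 with paste, against 1399, 2563, 2284 and 2133 in controls. Paste day 15 replicates 1 and 3 thus kept day 5 paste levels, and replicates 2 and 4 lay among or near the controls. Those 2 high libraries are the near-copy of a paste day 5 library and the library that resembled paste day 5.

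PITA_000038632 was at 1398, 2272, 1146 and 1624 with paste at day 5, against 568, 619, 961 and 699 in controls, a log2 difference of 1.16 (SE 0.35). Its paste libraries averaged 1769 ± 769 at day 15 and 1610 ± 482 at day 5 (SD, n = 4 each), while its controls averaged 1401 ± 713 at day 15 and 712 ± 175 at day 5.

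**Figure D2:**
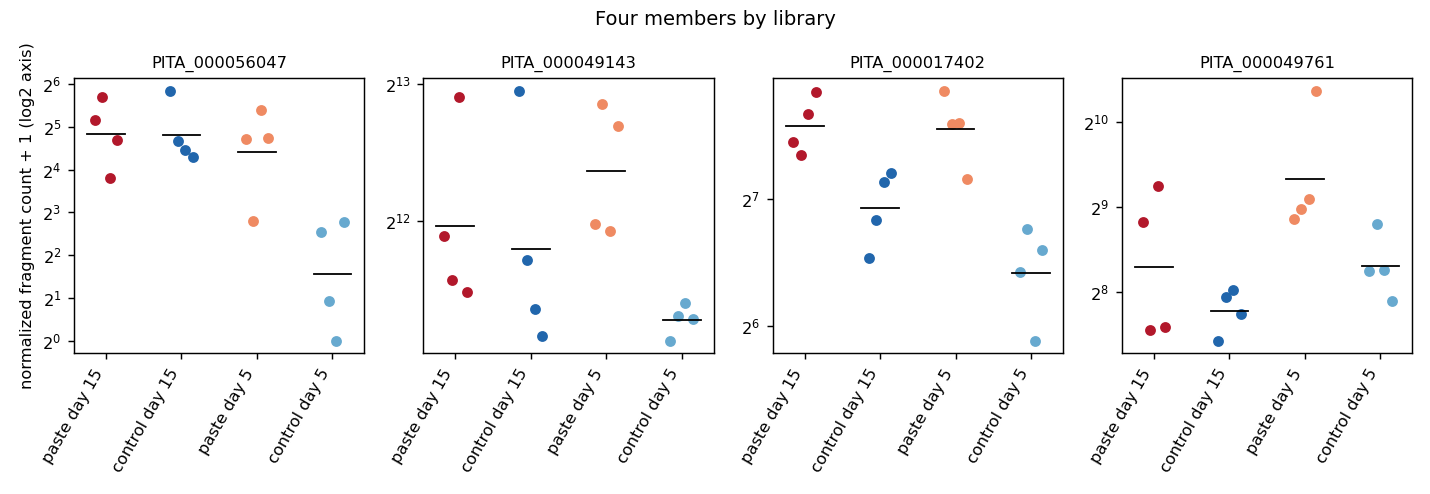
Points are the 4 libraries of each group for 4 members, on a log2 axis of the normalized fragment count plus 1, and bars are group means on that scale. PITA_000056047 shows day 15 controls reaching paste values. In PITA_000049143 only replicate 1 of the day 15 controls reaches the day 5 paste values, and the rest lie below them. PITA_000017402 keeps paste above control at both days, and the means of PITA_000049761 lie lower at day 15 than at day 5 in both treatments.

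At day 15 the members' log2 difference, paste minus control, had a median of 0.36 and ranged from -0.79 to 0.69, where the median over all features tested was -0.02. It was above 0 in 38 of 45 members, against 48.3% of all features. It lay between 0.5 and the 0.7 limit in 16, between 0 and 0.5 in 22, and below 0 in 7. Libraries of the treatments overlapped in 44 of the 45 members, and the share of all features that overlapped was not computed. In the remaining member, PITA_000017402, all 4 paste libraries were above all 4 controls at day 15 as well, which 1.91% of all features showed. No member and no feature was called at day 15 in the fit across all features (limma, 0 of 5856, 0.0%), and at an unadjusted p below 0.05 there were 2 members, both higher with paste, against 4.53% of all features.

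PITA_000017402 was also the only member called at day 5, and it was singled out after its values were seen. It was at 174, 163, 203 and 229 in the paste day 15 libraries, against 91.8, 114, 140 and 147 in the day 15 controls. At day 5 it was at 231, 192, 193 and 142 with paste, against 84.9, 108, 58.0 and 96.2 in controls. Paste stood above control on both days, by 0.65 at day 15 and 1.13 at day 5 on the log2 scale (SE 0.24 each). Its day 15 difference was just inside the 0.7 limit, so that its place among these features rests on where the limit was set. Its adjusted p at day 5 was 0.0484 by limma. It ranged from 0.0134 to 0.149 over the alternatives, and the call held in 8 of the 25 fits tried. With the replicate number as a block it was 0.106.

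The small median at day 15 hid differences between the 4 paste libraries. Against the mean of the day 15 controls, the members had a median L higher by 1.11 in paste replicate 3, with 37 of 45 members above that mean and 27 above every control. In replicate 1 the median was 0.35, with 15 members above every control. In replicates 2 and 4 it was -0.09 and 0.09, with 5 and 11 members above every control. The shares of all features above every control were 35.5% in replicate 3, 21.7% in replicate 1, 18.7% in replicate 2 and 19.4% in replicate 4. In replicates 2 and 4, then, the members' median lay near the day 15 control mean. With replicate 3 left out the median of the mean day 15 difference was 0.19, and without it and the nearly identical pair it was 0.08. The larger total of normalized values in replicate 3 moves with its higher members. With every library scaled to its total, its median was 0.65 in place of 1.11. The part of the total in this difference was not tested further.

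**Figure D3:**
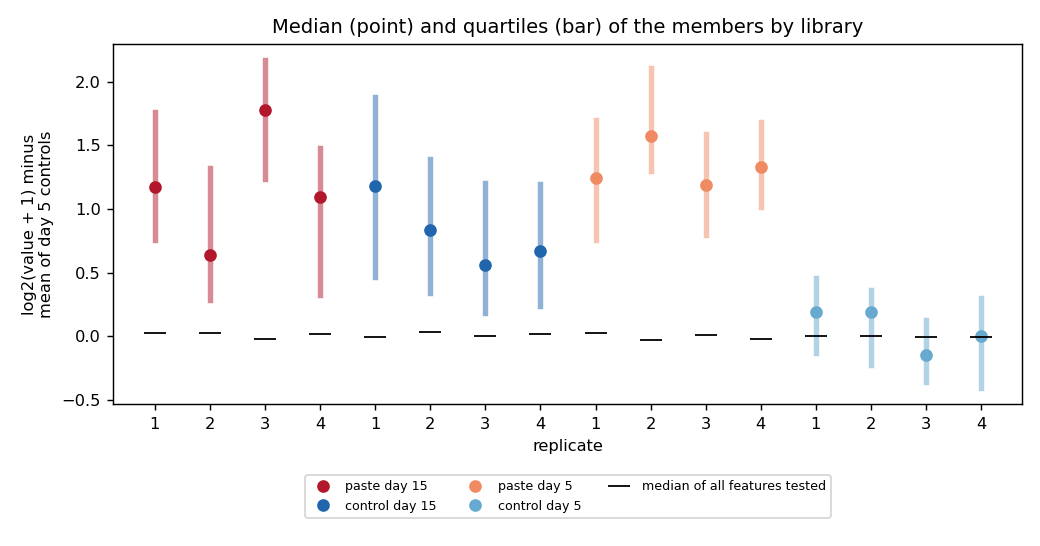
Points are the median over the 45 members of log2(value + 1) minus the mean of the day 5 controls, bars run between the quartiles of the members, and black dashes mark the median of all features tested. The paste day 15 libraries lie at 0.64 to 1.78, the control day 15 libraries at 0.56 to 1.18, the paste day 5 libraries at 1.18 to 1.58 and the control day 5 libraries near 0, while the dashes stay near 0 in all 16.

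The loss of the treatment difference can be split into a rise of the controls and a fall of the paste libraries from day 5 to day 15. In controls the members' mean L was higher at day 15 than at day 5 in 42 of 45, with a median change of 0.77. Over all features tested the median change in controls was 0.02, and 51.5% were above 0. In paste libraries the mean L was lower at day 15 in 33 of 45 members, with a median change of -0.14, against 0.02 and 48.2% lower for all features. For the typical member, 85.5% of the drop in the difference came from the controls. Without paste day 15 replicate 3 the median change in paste was -0.31 in place of -0.14, and 31 of 45 members in place of 38 had the larger part from the controls. Low day 5 controls and high day 15 controls both favour membership under the rule, and so do high day 5 and low day 15 paste values. Part of the control rise and part of the paste fall thus follow from the choice of members.

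The day 15 controls lay wholly above the day 5 controls in 12 of 45 members, against 6.25% of all features. They lay wholly below in none, and that share over all features was not computed. The paste day 15 libraries lay wholly above the day 5 controls in 19 members, against 5.55% of all features, and wholly below the paste day 5 libraries in none, against 0.359%. The nearly identical pair stands on both sides of that last comparison and leaves little room for separation. In 3 members, PITA_000056047, PITAhm_000940 and 1 other, the day 15 control mean was at or above the paste day 5 mean. Comparing day 15 with day 5, limma called no member in controls or in paste (0 of 5856 features in each, 0.0%). At an unadjusted p below 0.05, 17 members were higher at day 15 in controls, against 4.78% of all features, and 1 was lower in paste, against 1.47%. For the day 15 paste effect minus the day 5 one, limma called 0 members and 0 features (0.0%), and 6 members were lower at an unadjusted p below 0.05, against 0.444% of all features. The limits of the rule set the sign of this last difference and favour a rise in controls and a fall in paste, so these counts describe the choice of members.

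The control libraries carried the same pattern in each same-numbered pair. Libraries with the same number deviated together between the days in controls, and the members' median change, day 15 minus day 5, was 0.79, 0.60, 0.77 and 0.62 in replicates 1 to 4. In these pairs 38, 40, 35 and 40 of the 45 members were higher at day 15. All 4 pairs went up in 28 members, against 16.9% of all features. The choice of members favours this direction too. Elapsed time and the conditions at each harvest cannot be told apart.

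**Figure D4:**
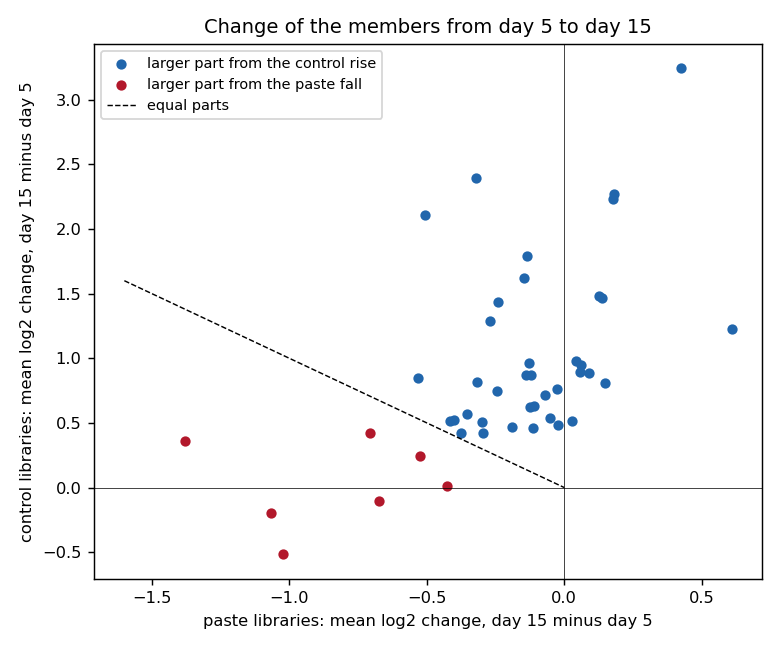
Each point is 1 member, with the mean log2 change from day 5 to day 15 of its paste libraries on the x axis and of its control libraries on the y axis. The 38 members above the dashed line lost more of the difference to a control rise, and the 7 below it lost more to a paste fall.

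In the 38 members with the larger part from the controls, the control change ranged from 0.42 to 3.24 with a median of 0.86, and the paste change from -0.53 to 0.61 with a median of -0.12. In the other 7 the control change ranged from -0.52 to 0.42 and the paste change from -1.38 to -0.43. All 15 members of low abundance, those with a mean value below 10 in day 5 controls, were in the first set. That limit picks low day 5 controls, which by itself favours a control rise. Without the nearly identical pair and paste day 15 replicate 3 the median paste change was -0.47 in place of -0.14, and 28 of 45 members had the larger part from the controls.

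PITA_000049761 and PITA_000041872, singled out after their values were seen, had the largest control falls of the 45. PITA_000049761 was at 453, 187, 605 and 191 in the paste day 15 libraries, against 171, 246, 259 and 213 in the controls. At day 5 it was at 463, 503, 548 and 1319 with paste, against 302, 447, 305 and 238 in controls. Both treatments were lower at day 15, by 1.02 with paste and 0.52 in controls on the log2 scale (SE 0.40 each). Paste day 15 replicates 1 and 3 were near the lower paste day 5 values, and replicates 2 and 4 were among the controls of their day.

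PITA_000041872 was at 99, 58.9, 346 and 46.1 with paste at day 15, against 80.9, 69.8, 80.1 and 63.9 in controls. At day 5 it was at 124, 376, 131 and 302 with paste, against 115, 48.9, 82.0 and 110 in controls. Paste replicate 3 at day 15 stood with the 2 highest paste day 5 libraries, and the other 3 lay around the controls.

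The members did not form 1 tight pattern across libraries. Across the 16 libraries a member's Pearson correlation with the mean of the other standardized members had a median of 0.71 and ranged from 0.18 to 0.92, a value that the shared choice on day 5 raises. With the group means taken out, the median was 0.38 and the range -0.63 to 0.87. It was above 0.5 in 19 members and below 0 in 11. The same measure was not computed for other features. The low-abundance members had a median of 0.07, and the other 30 had 0.52. Within paste day 15, replicate 3 was the highest of its group in 24 members, and it was the highest of all 16 libraries in 15. Control day 15 replicate 1 was the highest of its group in 23 members and paste day 5 replicate 2 in 21. These 3 libraries also had the largest total of normalized values in their groups. The day 5 controls did not share this pattern. There replicate 3 had the largest total, 5228608, and was the highest of its group in 6 members and the lowest in 15. With libraries scaled to their totals the median correlation within groups was 0.27.

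Among the 192 features that met the day 5 limits, the members were the lower end of a continuous range of day 15 differences, not a separate cluster. The 192 had a median day 15 difference of 1.18 and ran from -0.79 to 6.07. Between 0.5 and 0.7 there were 16 features and between 0.7 and 0.9 there were 29. The 3 members nearest to the day 15 limit had 0.67, 0.68 and 0.69, and the 3 features just outside had values of 0.71. At the day 5 limit the 3 nearest members had a difference of 1.01 each, and the 3 features just outside had 0.97, 0.98 and 0.99.

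**Figure D5:**
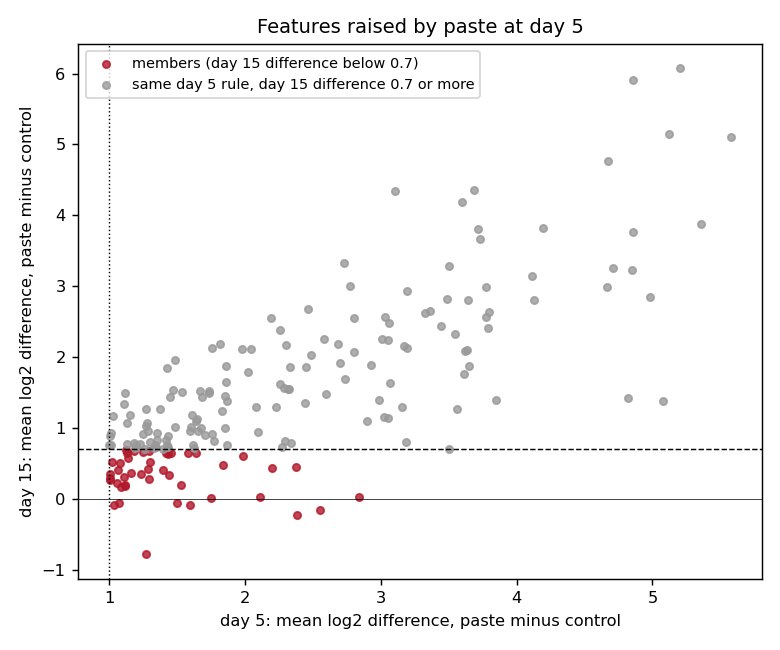
The 192 features that met the day 5 limits are shown by their mean log2 difference, paste minus control, at day 5 on the x axis and at day 15 on the y axis. The 45 members lie below the dashed limit of 0.7 and mostly at day 5 differences under 2, and the other 147 continue above it without a gap.

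The other 147 features met the same day 5 limits and had a day 15 difference of 0.7 or more. The members had the smaller day 5 differences, a median of 1.29 against 2.29. In controls the change from day 5 to day 15 had a median of 0.77 in the members and -0.07 in the other 147, and it was above 0 in 93.3% against 45.6%. In paste libraries the change had a median of -0.14 in the members and -0.73 in the others. So with all 16 libraries the median paste level of the members fell less with time than that of the other features raised at day 5. Against the day 15 control mean, the other 147 had a median of 3.61 in paste day 15 replicate 3 and 1.81 in replicate 1. It was 0.46 and 0.65 in replicates 2 and 4. The comparison of the 2 sets was not repeated without replicates 1 and 3. The day 15 limit separates the sets, and no test was made of the difference in the paste change. The median value with paste at day 15 was 58.0 in the members and 213 in the others, and in day 15 controls it was 42.6 and 41.5.

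By identifier, 31 members carried a PITA_ locus identifier, 8 a PITAhm_ identifier and 6 the name of an assembled transcript. Those are 68.9%, 17.8% and 13.3% of the members, against 68.4%, 23.3% and 8.35% of all features tested. None of the 45 had the low-data status that the files give to 34 of the 5856 features.

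Which features belong to this set depended on the libraries. Leaving out 1 library at a time gave sets of 28 to 97 features, and 9 of the 45 members stayed in all 16 of these sets. It was 97 without paste day 15 replicate 3, with 43 of the 45 kept, and 28 without paste day 15 replicate 2, with 26 kept. It was 91 without paste day 5 replicate 1, 68 without paste day 5 replicate 4 and 83 without control day 5 replicate 2. Without the nearly identical pair 384 features met the day 5 limits and 83 the whole rule, 36 of them members. Without that pair and paste day 15 replicate 3, 366 features met the day 5 limits and 275 the whole rule, including 39 of the 45 members. Paste day 15 was then replicates 2 and 4 alone. Most features raised at day 5 thus showed a day 15 difference below 0.7 in those 2 libraries.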

How the data were processed

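Vascular cambium RNA was depleted of ribosomal RNA and sequenced single-end, per the labels' protocols. Read checking (FastQC), Trimmomatic 0.32, HISAT2 2.0.4 and Cufflinks 2.1.1 are named in the submitters' processing notes. The genome build, annotation, strand setting and handling of multiply mapped reads were not found among the given sources, so overlapping or near-identical features may share fragments. The authors deposited values headed as counts per the file headers, but most are multiples of 1 step per library, so they were read as a signal, estimated fragments over a size factor. Of values up to 20.5 steps of 1 fragment, 96.6% to 98.0% lay within 0.1 of a whole step. Some were fractional, so count models planned as alternatives were not run. limma 3.58.1 in R 4.3.3 (trend, robust, 4 group means, 16 libraries) was fitted to log2(value + 1) of 5856 features, with Benjamini-Hochberg adjustment, two-sided. SEs come from this fit, and fold changes on this scale understate low features' changes. By title the libraries are biological replicates, without tying them to trees, so p-values measure the spread between these libraries, which may be partly technical.

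The members, lists and limits were chosen with earlier results of these data known. The members named by rule are the 2 with the largest day 5 and the 2 with the lowest day 15 difference. The other 7 named with values were chosen after their values were seen. Gene and marker lists need descriptions and could not be applied. Same-numbered control libraries of day 15 and day 5 deviated together (correlations of within-group deviations 0.25 to 0.56, each highest with its own number), from the data and not from the labels. Paste and control libraries of the same number did not. The rule and the fit were tested on simulated data.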

Additional observations from a re-analysis of the deposited data

Results flagged for a closer look

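Of 60 sets of 4 values examined (the 4 libraries of a group, for 12 members and for library measures), 4 had 1 library far from the rest. About 1 in 20 such sets would be marked by chance. For PITAhm_002518 it was replicate 4 of the day 5 controls, with 2.92 where the other 3 were listed at 0. For PITA_000023970 the same library was low, with 1237 where the other 3 had 2323 to 2432. For PITA_000049761 it was replicate 4 of paste day 5, with 1319 where the other 3 had 463 to 548. In estimated fragments, replicate 1 of the day 15 controls had 3323971, and the other 3 had 4548003 to 4798513.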

How the results depend on the processing

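The size of the set was 29 with a day 15 limit of 0.5, 83 with a limit of 1, 83 without the nearly identical pair and 275 without that pair and paste day 15 replicate 3. It ranged from 28 to 97 with 1 library left out. It stayed within 1.5 times under the other alternatives, from 33 with scaling to the total (28 members kept) to 55 with no filter on low values, and 4 members were kept under every scaling, pseudocount, unfiltered and left-out setting.

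Of the 45 members, the fit of day 5 called 1, and with the replicate number as a block it called 0. It called 0 with a pseudocount of 0.5, with no filter and without the nearly identical pair, 2 in a fit of only the groups compared, 22 with library quality weights and 15 without the pair and paste day 15 replicate 3. Calls over all 5856 features were 37 in the fit reported and 102, 421 and 537 under the last 3 settings, so calls were more frequent among all features too. With 1 library left out it called from 0 to 12, with 12 without paste day 15 replicate 3 (171 of all features), 4 without paste day 5 replicate 4, 3 without paste day 15 replicate 2, 1 without control day 15 replicate 1 and 0 without each of the other 12. Between the days, library quality weights called 2 members and 125 features in controls, and the fit without the pair and paste day 15 replicate 3 called 5 members and 1156 features in paste. In controls that last fit called 0 members and 39 features, and a fit of only the groups compared called 0 members and 68 features. No member was called between the days under the other alternatives. The causes were not tested. The blocked fit called 0 of the members in the other comparisons too. Paste and control pairs of the same number had correlations of -0.27 to 0.13 at day 5 and -0.38 to -0.10 at day 15. The median day 5 difference ranged from 1.19 to 1.40 and the median day 15 difference from 0.08 to 0.50 over all alternatives. From 28 to 39 members had the larger part from the controls. Fits by edgeR and DESeq2 were not run, since the values are not counts. With 3 to 36 fragments over the day 5 controls, the 15 low members are limited by depth.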
